A study of Homo sapiens with 24 samples.

Results

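The 8 genes described here encode proteins that bind microtubules or tubulin: the structural microtubule-associated proteins (MAPs) MAP1B, MAP2, MAP1A, MAP4, MAP7 and MAPT, and the stathmins STMN1 and STMN3. They were matched by the gene symbol of the probe annotation among 18417 measured genes, and where a gene had more than 1 probe set assigned to it alone, the brightest over all 24 arrays was used. The set was chosen by its measured changes: those of MAP1B, MAP2 and STMN1 with CG-1521 against vehicle in SUM149PT had been seen. The values of that comparison are therefore given as a description, without a p-value. The tests come from the other comparisons, some of which share arrays with it. SUM149PT and SUM190PT are human inflammatory breast cancer cell lines, both labelled as lacking the estrogen receptor and carrying mutant p53. Each line was exposed for 48 h to the histone deacetylase inhibitor CG-1521 together with 10 nM estradiol, to CG-1521 alone, to estradiol alone, or to vehicle (ethanol and DMSO), in 3 independent experiments per group. The dose of CG-1521 was 7.5 µM in SUM149PT, which was treated in medium with serum, and 5 µM in SUM190PT, which was treated in serum-free medium with supplements, so that line, dose and medium cannot be told apart. Expression was read on Affymetrix human gene arrays and is given as log2 values, in which a difference of 1 is a doubling.

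Structural MAPs bind along the microtubule and make it more stable or link it to other parts of the cell. In neurons, MAP2 marks dendrites, the tau protein encoded by MAPT is found mainly in axons, MAP1A and MAP1B are the large MAPs of mature and of growing processes, and MAP4 and MAP7 do comparable work in many other cell types, MAP7 being an epithelial MAP that also recruits kinesin motors. Stathmins act in the opposite direction: STMN1 sequesters tubulin dimers and favours shrinkage, is abundant in dividing cells and is switched off by phosphorylation at mitosis, while STMN3 is a membrane-bound relative best known from neurons. The levels of different genes are not compared below, because each probe set has its own brightness.

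The arrays of a group resembled each other more closely in SUM149PT (pairwise correlation over all genes 0.995 to 0.996) than in SUM190PT (0.981 to 0.996). In SUM190PT, replicate 3 of vehicle and replicate 3 of estradiol were unlike the rest of their groups: the median log2 level of 12 proliferation markers was 7.48 and 7.56 there, against 8.95 to 9.30 on the other vehicle and estradiol arrays of that line. Results that rest on these 2 outlying arrays are given with and without them. The arrays were set apart by the low level of these markers. For genes that are low on them, leaving them out enlarges a fall with CG-1521 and gives no independent support. The epithelial identity of both lines could be read from EPCAM, which averaged 11.39 ± 0.30 in SUM149PT and 10.59 ± 0.39 in SUM190PT under vehicle (log2, SD, n = 3 each), and from KRT18 at 11.86 ± 0.08 in SUM149PT and 12.08 ± 0.10 in SUM190PT. Of the 8 epithelial markers, the basal keratin KRT5 set the lines apart most, at 10.43 ± 0.11 in SUM149PT and 5.53 ± 0.41 in SUM190PT.

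The promoters of the 3 genes with the largest shifts were compared for short motifs, since MAP1B and MAP2 moved one way and STMN1 the other. RefSeq windows on GRCh38.p14, reaching from 250 bases before to 50 bases after an annotated start, were available for 7 of the 8 genes, in 17 windows. The 5 motifs were searched on both strands: the GC box (GGGCGG), the CCAAT box (CCAAT), the TATA box (TATAAA), an E2F-type motif (TTTGGCG) and the cell cycle homology region (TTTGAA), and no matches overlapped in the windows printed here. A single window per gene, among those with most matches, is shown 5′ to 3′ on the gene's strand, with matches in capitals: chr5:72107225-72107524 on the plus strand for MAP1B, chr2:209579082-209579381 on the plus strand for MAP2 and chr1:25906370-25906669 on the minus strand for STMN1.
MAP1B: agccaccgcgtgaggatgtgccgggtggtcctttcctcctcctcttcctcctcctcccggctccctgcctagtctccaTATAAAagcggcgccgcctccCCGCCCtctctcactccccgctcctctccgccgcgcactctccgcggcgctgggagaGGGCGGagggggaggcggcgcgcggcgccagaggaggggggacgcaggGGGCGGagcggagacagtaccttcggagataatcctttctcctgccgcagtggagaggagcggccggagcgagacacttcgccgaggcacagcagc
MAP2: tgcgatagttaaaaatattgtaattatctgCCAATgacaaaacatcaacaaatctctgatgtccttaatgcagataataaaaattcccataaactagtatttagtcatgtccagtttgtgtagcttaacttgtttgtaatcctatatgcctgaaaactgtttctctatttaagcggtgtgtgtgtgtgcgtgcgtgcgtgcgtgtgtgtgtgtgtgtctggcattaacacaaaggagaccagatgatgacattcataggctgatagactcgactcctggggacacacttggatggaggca
STMN1: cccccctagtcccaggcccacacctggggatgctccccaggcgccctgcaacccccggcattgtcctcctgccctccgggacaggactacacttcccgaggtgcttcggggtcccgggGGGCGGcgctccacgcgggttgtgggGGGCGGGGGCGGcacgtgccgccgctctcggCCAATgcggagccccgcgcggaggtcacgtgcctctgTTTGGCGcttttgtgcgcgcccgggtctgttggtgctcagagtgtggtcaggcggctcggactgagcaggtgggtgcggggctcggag
Where windows of a gene tied, the first listed is shown. The MAP1B window is rich in G and C (70.0%) and holds 3 GC boxes and a TATA box, the latter between bases -172 and -167 from the start. Another MAP1B window held as many matches, with the TATA box between bases -30 and -25 and a cell cycle homology region. The MAP2 window, at an internal start, is poor in G and C (40.0%, against a median of 58.7% over 35116 windows of all genes) and holds 1 CCAAT box. The STMN1 window (72.7%) holds 3 GC boxes, 1 CCAAT box and, between bases -38 and -32 from the start, the E2F-type motif. Another STMN1 window held as many matches, all of them GC boxes, and no E2F-type motif. Over all windows, 45.0% hold a GC box, 34.6% a CCAAT box, 11.5% a TATA box, 1.92% the E2F-type motif and 15.2% the cell cycle homology region. Of the 17 windows of these genes, 9, 5, 2, 1 and 4 held them in that order. Because the windows shown were those with most matches, they are a description of these sequences only.

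MAP1B, at chr5:72107475-72209565, encodes a MAP of growing neuronal processes, and it was higher in every array with CG-1521 than in any array of the same line without it. In SUM149PT its log2 level was 8.12, 8.13 and 8.60 with CG-1521, against 6.17, 6.21 and 6.67 with vehicle, a difference of 1.93 (SE 0.173), or 3.82-fold, that is part of what drew attention to the gene. With estradiol also present, the SUM149PT arrays with CG-1521 read 7.92, 8.31 and 8.50, against 6.39, 6.25 and 6.69 with estradiol alone. These arrays did not overlap, and MAP1B rose by 1.80 (SE 0.173, limma adjusted p = 6.44e-07). In these bulk RNA samples, expression in more of the cells and more RNA per cell cannot be told apart.

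In SUM190PT MAP1B read 8.14, 7.24 and 7.72 with CG-1521, against 5.00, 4.56 and 5.14 with vehicle. The gap between the groups was wider than the spread within either, and the rise was 2.80 (SE 0.276, adjusted p = 6.79e-05), or 6.95-fold. With estradiol present the values were 8.33, 7.71 and 7.66 with CG-1521, against 4.25, 4.29 and 5.09 with estradiol alone, a rise of 3.35 (SE 0.276, adjusted p = 1.86e-05) or 10.2-fold. The 4 groups with CG-1521 thus lay at the top, in the order SUM149PT with CG-1521 (8.28 ± 0.27), SUM149PT with both agents (8.24 ± 0.30), SUM190PT with both agents (7.90 ± 0.37) and SUM190PT with CG-1521 (7.70 ± 0.45, SD, n = 3 each), and neighbours in that order overlapped. Below them came SUM149PT with estradiol (6.45 ± 0.23) and vehicle (6.35 ± 0.28), which overlapped each other, and then, without overlap with these, SUM190PT with vehicle (4.90 ± 0.30) and estradiol (4.54 ± 0.48). The last mean lay below 4.615, the level under which the dimmest 25% of genes averaged. How far such a dim reference alters the fold change was not tested.

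MAP2, at chr2:209424047-209734112, encodes the dendritic MAP, and it too was higher with CG-1521 in both lines. In SUM149PT it read 6.04, 6.07 and 6.33 with CG-1521, against 4.30, 4.53 and 4.19 with vehicle, a difference of 1.81 (SE 0.168), or 3.50-fold, given as a description. With estradiol present it read 5.70, 5.93 and 6.37 with CG-1521, against 4.28, 4.07 and 3.68 without, and rose by 1.99 (SE 0.168, adjusted p = 1.54e-07). No array of one group reached the range of the other in either pair.

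In SUM190PT, where the gene started higher, MAP2 read 8.89, 8.42 and 8.08 with CG-1521, against 6.39, 5.95 and 5.72 with vehicle, a rise of 2.44 (SE 0.331, adjusted p = 0.000445) or 5.44-fold. With estradiol it read 9.00, 8.55 and 7.51 with CG-1521, against 6.69, 6.57 and 6.05 with estradiol alone, a rise of 1.92 (SE 0.331, adjusted p = 0.00171). Replicate 3 gave the lowest MAP2 value in each of the 4 SUM190PT groups. In order of mean level, the SUM190PT groups with CG-1521 (8.46 ± 0.41) and with both agents (8.35 ± 0.76) came first and overlapped each other but no other group. SUM190PT with estradiol (6.44 ± 0.34), SUM149PT with CG-1521 (6.15 ± 0.16), SUM190PT with vehicle (6.02 ± 0.34) and SUM149PT with both agents (6.00 ± 0.34) formed a run in which neighbours overlapped. SUM149PT with vehicle (4.34 ± 0.18) and with estradiol (4.01 ± 0.31, SD, n = 3 each) were lowest and overlapped each other. Both means lay below 4.615, the level under which the dimmest 25% of genes averaged, so the SUM149PT changes start from a dim reference.

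**Figure D1:**
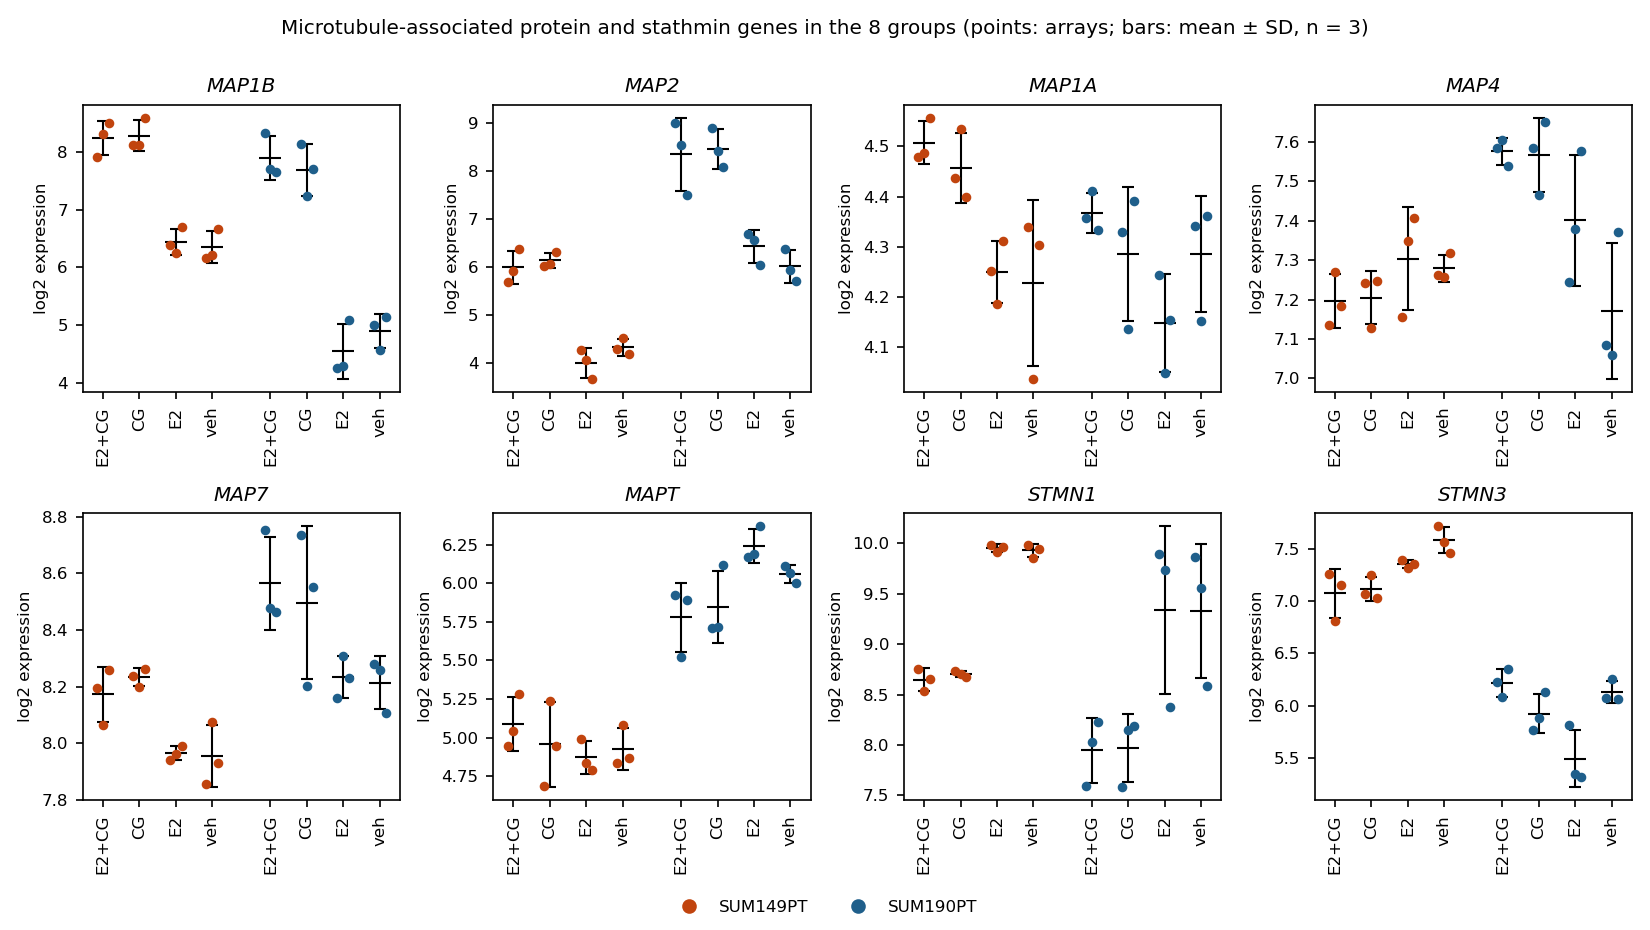
Log2 expression of the 8 genes, 1 panel per gene with its own scale, in the 8 groups (E2+CG, estradiol with CG-1521; CG, CG-1521; E2, estradiol; veh, vehicle; SUM149PT left, SUM190PT right). Points are arrays and bars the mean ± SD (n = 3); MAP1B and MAP2 sit high in all 4 groups with CG-1521, STMN1 sits low in them, and STMN1 in replicate 3 of SUM190PT read 8.38 with estradiol and 8.59 with vehicle.

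STMN1, at chr1:25884179-25906880, encodes stathmin, the tubulin-sequestering protein of dividing cells, and it was lower with CG-1521. In SUM149PT it read 8.74, 8.71 and 8.68 with CG-1521, against 9.99, 9.86 and 9.95 with vehicle, a difference of -1.22 (SE 0.0773), given as a description. With estradiol present it read 8.76, 8.53 and 8.66 with CG-1521, against 9.99, 9.91 and 9.96 with estradiol alone. The groups were far apart for the small spread within them, and STMN1 fell by 1.30 (SE 0.0773, adjusted p = 3.31e-09), a 2.47-fold lower level.

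In SUM190PT STMN1 read 7.58, 8.14 and 8.19 with CG-1521, against 9.86, 9.55 and 8.59 with vehicle. With estradiol it read 7.59, 8.02 and 8.22 with CG-1521, against 9.89, 9.74 and 8.38 with estradiol alone. The groups did not overlap in either pair, but the 2 outlying arrays lay nearer to the arrays with CG-1521 than to their own groups. STMN1 fell by 1.36 (SE 0.386, adjusted p = 0.0297) without estradiol and by 1.39 (SE 0.386, adjusted p = 0.0205) with it. Without those 2 arrays STMN1 fell by 1.74 (adjusted p = 0.000308) without estradiol and fell by 1.87 (adjusted p = 0.000139) with it. These larger falls follow from leaving out the lowest STMN1 values of the vehicle and estradiol groups. Leaving out any of several single arrays ended the call: for CG-1521 against vehicle the adjusted p was 0.0918 and 0.104 without vehicle replicates 1 and 2, and 0.124 and 0.054 without CG-1521 replicates 1 and 3. For the pair with estradiol it was 0.0815 and 0.0867 without estradiol replicates 1 and 2, and 0.0812 without replicate 1 of the combination.

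STMN1 and the proliferation genes were both lower in the groups with CG-1521 and on the 2 outlying SUM190PT arrays, but within a group their order could differ. The median of 12 proliferation markers was 8.02 to 8.10 in SUM149PT with CG-1521 against 9.86 to 9.95 with vehicle, and in SUM190PT it was 6.48, 7.44 and 6.69 with CG-1521 against 9.30, 8.95 and 7.48 with vehicle. In SUM190PT with CG-1521, for instance, STMN1 was highest in replicate 3 (8.19) and the markers in replicate 2 (7.44). In CG-1521 against vehicle, all 12 markers fell in SUM149PT (median change -1.84, against -0.0024 over all genes), and in SUM190PT 6 of 12 fell, or 12 of 12 without the 2 outlying arrays. Because those arrays were set apart by these same markers, the higher count without them is no separate support. The part of a change in cell division in the STMN1 result was not tested.

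The array holds a second, much dimmer STMN1 probe set, with a mean of 4.82 over all arrays against 8.98 for the one used, and the 2 disagreed. In SUM149PT the dimmer probe set averaged 5.33 ± 0.20 with CG-1521 and 5.08 ± 0.16 with vehicle (SD, n = 3 each), a difference of 0.25, given as a description. In SUM190PT it averaged 4.46 ± 0.04 with CG-1521 and 4.46 ± 0.06 with vehicle. Taking the mean of both probe sets left a fall of 0.49 in SUM149PT and of 0.68 in SUM190PT (adjusted p = 0.0477) for CG-1521 against vehicle, and with estradiol a fall of 0.62 (adjusted p = 1.38e-05) in SUM149PT and of 0.54 in SUM190PT, where the call was lost (adjusted p = 0.0813). Which transcripts each probe set reads was not tested.

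**Figure D2:**
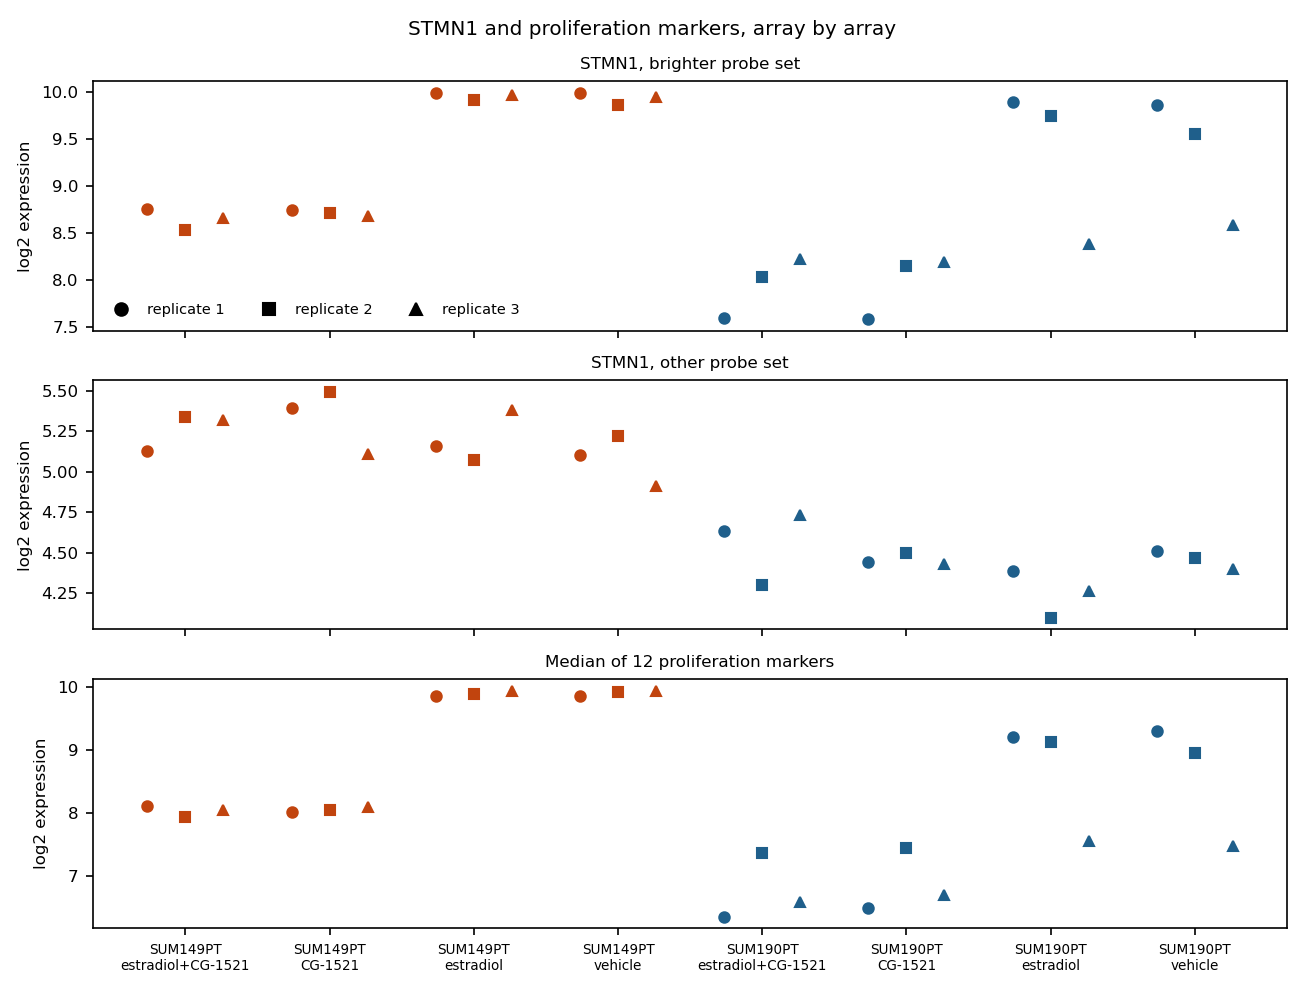
Log2 level of the 2 STMN1 probe sets and median log2 level of 12 proliferation markers (y axes) on each of the 24 arrays (x axis, by group; symbols mark the replicate; red, SUM149PT; blue, SUM190PT). The brighter probe set and the markers are low in the groups with CG-1521 and in replicate 3 of SUM190PT with estradiol (8.38 for STMN1) and vehicle (8.59), while the dimmer probe set, between 4.10 and 5.49, shows no such drop.

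STMN3, at chr20:63639712-63653424, encodes a stathmin of neurons, and it behaved unlike STMN1. In SUM149PT it read 7.07, 7.25 and 7.03 with CG-1521, against 7.71, 7.57 and 7.46 with vehicle, a difference of -0.47 (SE 0.109). With estradiol present it read 7.25, 6.81 and 7.16 with CG-1521, against 7.40, 7.32 and 7.35 without, and the difference of -0.28 (SE 0.109, adjusted p = 0.0561) did not pass. The arrays did not overlap in either pair of SUM149PT groups.

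In SUM190PT STMN3 read 5.77, 5.88 and 6.13 with CG-1521, against 6.07, 6.25 and 6.07 with vehicle, and the difference of -0.21 (95% interval -0.52 to 0.11, adjusted p = 0.37) did not pass. With estradiol present it read 6.23, 6.08 and 6.35 with CG-1521, against 5.81, 5.35 and 5.32 with estradiol alone, and rose by 0.73 (SE 0.147, adjusted p = 0.00422), or 1.65-fold. The estradiol group was the lowest of the 8 groups (5.49 ± 0.27), below SUM190PT with CG-1521 (5.92 ± 0.18), vehicle (6.13 ± 0.11) and both agents (6.22 ± 0.13, SD, n = 3 each), all neighbours overlapping. Every SUM149PT array lay above every SUM190PT array. Between estradiol and vehicle in SUM190PT the difference was -0.64 (SE 0.147), without overlap, but its adjusted p of 0.0561 missed the threshold.

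The other structural MAPs shifted little. MAP7, at chr6:136342734-136550422, read 8.24, 8.20 and 8.26 with CG-1521 in SUM149PT, against 7.86, 8.07 and 7.93 with vehicle, a difference of 0.28 (SE 0.0795), and 8.19, 8.07 and 8.26 with both agents, against 7.94, 7.96 and 7.99 with estradiol, where 0.21 (SE 0.0795, adjusted p = 0.053) did not pass. In SUM190PT its values were 8.73, 8.20 and 8.55 with CG-1521, against 8.28, 8.26 and 8.11 with vehicle, and these overlapped (difference 0.28, SE 0.138, adjusted p = 0.184). With estradiol there the difference was 0.33 (95% interval 0.03 to 0.63, adjusted p = 0.0917). MAP7 thus lay 0.21 to 0.33 higher with CG-1521 in all 4 pairs, and neither of the SUM190PT pairs passed the test.

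MAP4, at chr3:47850695-48088848, the widely expressed MAP of non-neuronal cells, differed by -0.07 (SE 0.0819) between CG-1521 and vehicle in SUM149PT. With estradiol in both arms it read 7.14, 7.27 and 7.18 with both agents, against 7.16, 7.35 and 7.41 with estradiol (difference -0.11, SE 0.0819, adjusted p = 0.341). In SUM190PT it read 7.58, 7.46 and 7.65 with CG-1521, against 7.08, 7.06 and 7.37 with vehicle. The groups did not overlap, and MAP4 rose by 0.40 (SE 0.119, adjusted p = 0.0385), or 1.32-fold. That call was lost without vehicle replicate 1 (adjusted p = 0.0907) or 2 (0.136), without CG-1521 replicate 1 (0.113) or 3 (0.12), and after quantile normalization (0.0576). With estradiol present the values were 7.58, 7.60 and 7.54 with CG-1521, against 7.25, 7.38 and 7.58 with estradiol alone, which overlapped (difference 0.18, SE 0.119, adjusted p = 0.286).

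MAP1A, at chr15:43510954-43531611, was dim on all arrays (4.04 to 4.56, among the dimmest 25% of genes, whose means lie under 4.615). In SUM149PT the difference between CG-1521 and vehicle was 0.23 (SE 0.0874). It read 4.48, 4.49 and 4.56 there with both agents, against 4.25, 4.19 and 4.31 with estradiol, and rose by 0.26 (SE 0.0874, adjusted p = 0.0296). The call was lost without estradiol replicate 1 (adjusted p = 0.0618) or 2 (0.104), without replicate 2 (0.0549) or 3 (0.0895) of the combination, after quantile normalization (0.111) and with limma-trend (0.0519). In SUM190PT the difference with CG-1521 was 0.00 without estradiol (95% interval -0.23 to 0.23) and 0.22 with it (-0.01 to 0.45).

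MAPT, at chr17:45894554-46028334, encodes tau. In SUM149PT its values lay between 4.68 and 5.29 over all 12 arrays. The difference was 0.03 (SE 0.128) between CG-1521 and vehicle and 0.22 (SE 0.128, adjusted p = 0.208) between both agents and estradiol alone. In SUM190PT it read 5.92, 5.52 and 5.89 with both agents, against 6.17, 6.19 and 6.37 with estradiol. These arrays did not overlap, and MAPT fell by 0.46 (SE 0.14, adjusted p = 0.0293), but the call was lost without estradiol replicate 1 (0.0531), 2 (0.0662) or 3 (0.0801) or without replicate 2 of the combination (0.102). Without estradiol it read 5.71, 5.72 and 6.12 with CG-1521, against 6.12, 6.06 and 6.00 with vehicle, which overlapped (difference -0.21, SE 0.14, adjusted p = 0.326). Of the structural MAPs among the 8 genes, only MAPT had an estimate below 0 in both SUM190PT pairs, where MAP1B and MAP2 rose.

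**Figure D3:**
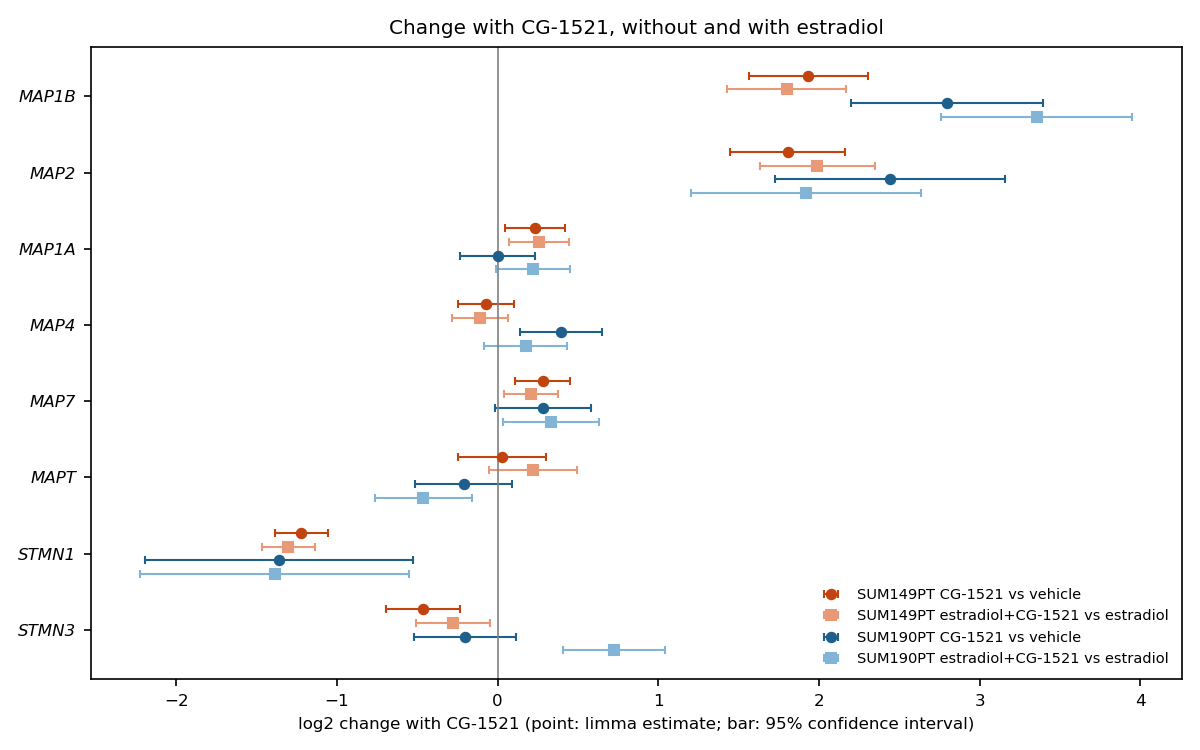
Log2 change with CG-1521 (x axis) of each of the 8 genes (rows), for CG-1521 against vehicle (circles) and CG-1521 with estradiol against estradiol (squares) in SUM149PT (red) and SUM190PT (blue). Points are limma estimates and bars their 95% intervals; MAP1B and MAP2 lie between 1.80 and 3.35, STMN1 between -1.39 and -1.22, and STMN3 in SUM190PT changes sign between the 2 pairs.

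CG-1521 against vehicle in SUM149PT is the comparison that led to the set, and no count of its calls among the 8 genes is read here; 34.3% of all genes passed in it at a limma adjusted p under 0.05 (14.4% higher and 19.9% lower). With estradiol in both arms 4 of 8 passed in SUM149PT, 3 higher (MAP1B, MAP2 and MAP1A) and STMN1 lower, where 36.9% of all genes passed (16.5% higher and 20.4% lower). In SUM190PT 4 of 8 passed without estradiol, where 16.6% of all genes passed (8.32% higher and 8.26% lower), with MAP1B, MAP2 and MAP4 higher and STMN1 lower. With estradiol in both arms there, 5 of 8 passed, where 25.7% of all genes passed (12.5% higher and 13.2% lower), with MAP1B, MAP2 and STMN3 higher and STMN1 and MAPT lower. Without the 2 outlying arrays each of these SUM190PT counts was 4. MAP1B, MAP2 and STMN1, whose response to CG-1521 led to the set, are in each count out of 8 in this paragraph. No excess over the shares of all genes is therefore read from these counts. Beside these genes, MAP1A passed in SUM149PT with estradiol in both arms, and MAP4 in SUM190PT without estradiol. In SUM190PT with estradiol in both arms STMN3 and MAPT passed. The shares over all genes depended on single SUM190PT arrays: the 3053 genes called with CG-1521 against vehicle became 1567 without CG-1521 replicate 1 and 1878 without vehicle replicate 2. The 4732 genes called with estradiol in both arms became 2605 without estradiol replicate 2, and 2679 and 3063 without replicates 1 and 3 of the combination. The arrays of the 2 groups did not overlap for 7 of 8 genes with CG-1521 against vehicle in SUM149PT (44.6% of all genes), a count given as a description, and for 6 of 8 with estradiol in both arms (46.8%). In SUM190PT they did not overlap for 4 of 8 genes (31.5% of all genes) and, with estradiol, for 7 of 8 (45.6%). Both agents against vehicle, which shares its vehicle arrays with the other comparisons, passed for 4 genes higher and 2 lower in SUM149PT (37.2% of all genes, 16.2% higher and 20.9% lower) and for 3 higher and 1 lower in SUM190PT (13.4%, with 6.62% higher and 6.77% lower). In SUM149PT the MAP7 call was lost without vehicle replicate 1 (adjusted p = 0.154) or 3 (0.103) and without replicate 1 (0.0941) or 3 (0.146) of the combination, and the MAP1A call without vehicle replicate 2 (0.108) or replicate 3 of the combination (0.0626). In SUM190PT the 2466 genes called became 1252 without replicate 1 of the combination and 1611 without vehicle replicate 2. Those groups did not overlap for 5 of 8 genes in SUM149PT (46.5% of all genes) and 6 of 8 in SUM190PT (28.7%).

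Estradiol by itself changed none of the 8 genes at an adjusted p under 0.05 in limma. Against vehicle in SUM149PT, 0 of 8 members and 845 of 18417 genes had an unadjusted p under 0.05. At the adjusted threshold the count there was 0 of 8, where 0% of all genes passed. In SUM190PT it was 0 of 8, where 0.00543% of all genes passed, which is 1 gene, or 519 with the replicate block. That background was not firm: 2261 genes passed without vehicle replicate 1, and 0 without any other single array of the 2 groups. STMN3 was the 1 member of 8 with an unadjusted p under 0.05 there, a level that 4531 of 18417 genes reached, so no excess is read from it. The arrays did not overlap for 2 of 8 genes (28.4% of all genes). STMN3 passed without vehicle replicate 1 (-0.67, adjusted p = 0.0302) and in a single fit over all 24 arrays (adjusted p = 0.00531). Added to CG-1521, estradiol passed for 0 of 8 in either line (0% of all genes passed in each line). In that comparison 0 of 8 had an unadjusted p under 0.05, against 1156 of 18417 genes in SUM149PT and 889 in SUM190PT. For MAP1B the estradiol difference was 0.09 (95% interval -0.28 to 0.46) in SUM149PT and -0.35 (-0.95 to 0.24) in SUM190PT, and for STMN1 it was 0.02 (-0.14 to 0.19) in SUM149PT and 0.00 (-0.83 to 0.84) in SUM190PT. These intervals treat the arrays as unpaired, although same-numbered SUM190PT experiments deviated together, so spread between experiments is part of their width. By replicate, STMN1 there read 9.89, 9.74 and 8.38 with estradiol, against 9.86, 9.55 and 8.59 with vehicle. A fit that pairs only these 2 groups was not made.

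Whether estradiol altered the response to CG-1521 was tested as an interaction. None of the 8 genes passed in SUM149PT (0% of all genes passed) or in SUM190PT (0.516% of all genes passed). At an unadjusted p under 0.05 there were 0 of 8 in SUM149PT, against 1046 of 18417 genes, and 1 of 8 in SUM190PT, against 4159. The interaction in SUM149PT contains the comparison that led to the set. In SUM190PT the 95 genes called became 1655 without vehicle replicate 1 and 0 to 4 without any other single array. That 1 gene was STMN3 in SUM190PT, with a difference of 0.93 between its 2 responses (SE 0.207, adjusted p = 0.0592), which passed without vehicle replicate 1 (0.96, adjusted p = 0.0302) and in a single fit over all 24 arrays (adjusted p = 0.00593).

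The lines differed in the starting level of several of these genes. The comparisons between lines use SUM149PT arrays whose values for MAP1B, MAP2 and STMN1 led to the set. For these genes the tests between lines are therefore a description, not independent of that choice. Under vehicle, SUM149PT exceeded SUM190PT for MAP1B by 1.45 (SE 0.249, adjusted p = 3.26e-05) and for STMN3 by 1.45 (SE 0.133, adjusted p = 3.46e-09). SUM149PT lay below SUM190PT for MAP2 (-1.68, SE 0.283, adjusted p = 2.65e-05) and for MAPT (-1.13, SE 0.14, adjusted p = 3.72e-07). These 4 of 8 passed where 46.7% of all genes did (24.5% higher and 22.1% lower), and 5 of 8 did not overlap (52.3% of all genes), so differences of this kind were common. With CG-1521 in both lines, 5 of 8 passed where 47.6% of all genes did (25% higher and 22.6% lower): MAP2 (-2.32, SE 0.283), MAPT (-0.89, SE 0.14) and MAP4 (-0.36, SE 0.099) were lower and STMN3 (1.19, SE 0.133) and STMN1 (0.74, SE 0.297, adjusted p = 0.0453) higher in SUM149PT. The STMN1 call was lost without SUM149PT replicate 1 (adjusted p = 0.094), 2 (0.0893) or 3 (0.0822), without SUM190PT replicate 1 (0.195) or 2 (0.0517), or with arrays centred on their median (0.0806).

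MAP1B was higher in SUM149PT than in SUM190PT by 0.59 with CG-1521 (95% interval 0.07 to 1.10, adjusted p = 0.056), against 1.45 with vehicle. The response to CG-1521 in SUM149PT minus that in SUM190PT was -0.86 (SE 0.352) for MAP1B, and -0.98 without the 2 outlying SUM190PT arrays. It contains the SUM149PT change that drew attention to MAP1B, MAP2 and STMN1, so for these genes it is given without a p-value. For MAP2 the response difference was -0.64 (95% interval -1.47 to 0.19) and for STMN1 0.14 (-0.73 to 1.01), intervals too wide to show whether the responses were alike. Among the other members MAP4 passed (-0.47, SE 0.14, adjusted p = 0.0199), in a test that 20.6% of all genes passed.

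The surrounding pathway was read from 6 lists of microtubule regulators with 107 further measured genes. Of these, CG-1521 against vehicle raised 16 and lowered 40 in SUM149PT (median change -0.05, against -0.0024 over all genes) and raised 13 and lowered 18 in SUM190PT (-0.08, against -0.05). Over all genes 14.4% rose and 19.9% fell in SUM149PT, and 8.32% rose and 8.26% fell in SUM190PT, and the counts of each list are to be read against these shares. Among 21 other structural MAPs, 2 rose and 5 fell in SUM149PT and 2 rose and 2 fell in SUM190PT. Every riser changed by less than MAP1B or MAP2. In SUM149PT the choice of the set favoured that outcome, because it rests on those changes of MAP1B and MAP2. The largest risers there were MAP9 (0.70, SE 0.14) and EML2 (0.67, SE 0.111). In SUM190PT the largest was MAP1S (0.49, SE 0.126), a short relative of MAP1A and MAP1B. GAS2L3, which links microtubules to actin at the end of division, fell by 1.89 in SUM149PT. Among 11 further genes listed with the stathmins and destabilizers, 0 rose and 6 fell in SUM149PT (median -0.38) and 0 rose and 2 fell in SUM190PT (-0.14). KIF2C, a depolymerizing kinesin of the centromere, fell by 1.72 in SUM149PT and by 2.06 in SUM190PT. The other gene of this list to fall in SUM190PT was MCRS1 (-0.39), and whether each listed gene destabilizes microtubules was not tested.

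The spindle MAPs fell together with STMN1: 19 of 21 fell in SUM149PT (median -1.37) and 11 of 21 in SUM190PT (-0.90), or 14 of 21 without the 2 outlying arrays. The spindle MAPs were low on those arrays too, so leaving the arrays out enlarges the fall. ASPM, a spindle pole protein, fell by 2.23 in each line, TPX2 and SPAG5 fell by 2.02 and 2.06 in SUM149PT, and PRC1, which bundles the midzone, fell by 1.84 in SUM190PT. Proteins of the microtubule ends went both ways, 7 higher and 5 lower of 21 in SUM149PT and 7 higher and 1 lower in SUM190PT. CLIP4 rose in both lines, by 1.02 (SE 0.0862) in SUM149PT and 2.57 (SE 0.276) in SUM190PT, and NAV3 rose by 2.10 and MAPRE3 by 1.23 in SUM149PT. Of 20 genes of tubulin modification and folding, 4 rose and 5 fell in SUM149PT, and 4 rose and 2 fell in SUM190PT. The risers included the tubulin glutamylase TTLL7 (1.89 in SUM149PT and 1.19 in SUM190PT), the deglutamylase AGTPBP1 (1.34 in SUM149PT and 1.47 in SUM190PT) and the tubulin folding cofactor TBCA (0.64 in SUM149PT and 1.28 in SUM190PT), while TBCD fell in both lines (-1.13 in SUM149PT and -0.50 in SUM190PT) and TTLL12 (-0.91) and TBCB (-0.79) fell in SUM149PT. Of 13 kinases that phosphorylate MAPs, TTBK2, MARK1 and GSK3B rose in SUM149PT, and in SUM190PT limma called 0 of 13.

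**Figure D4:**
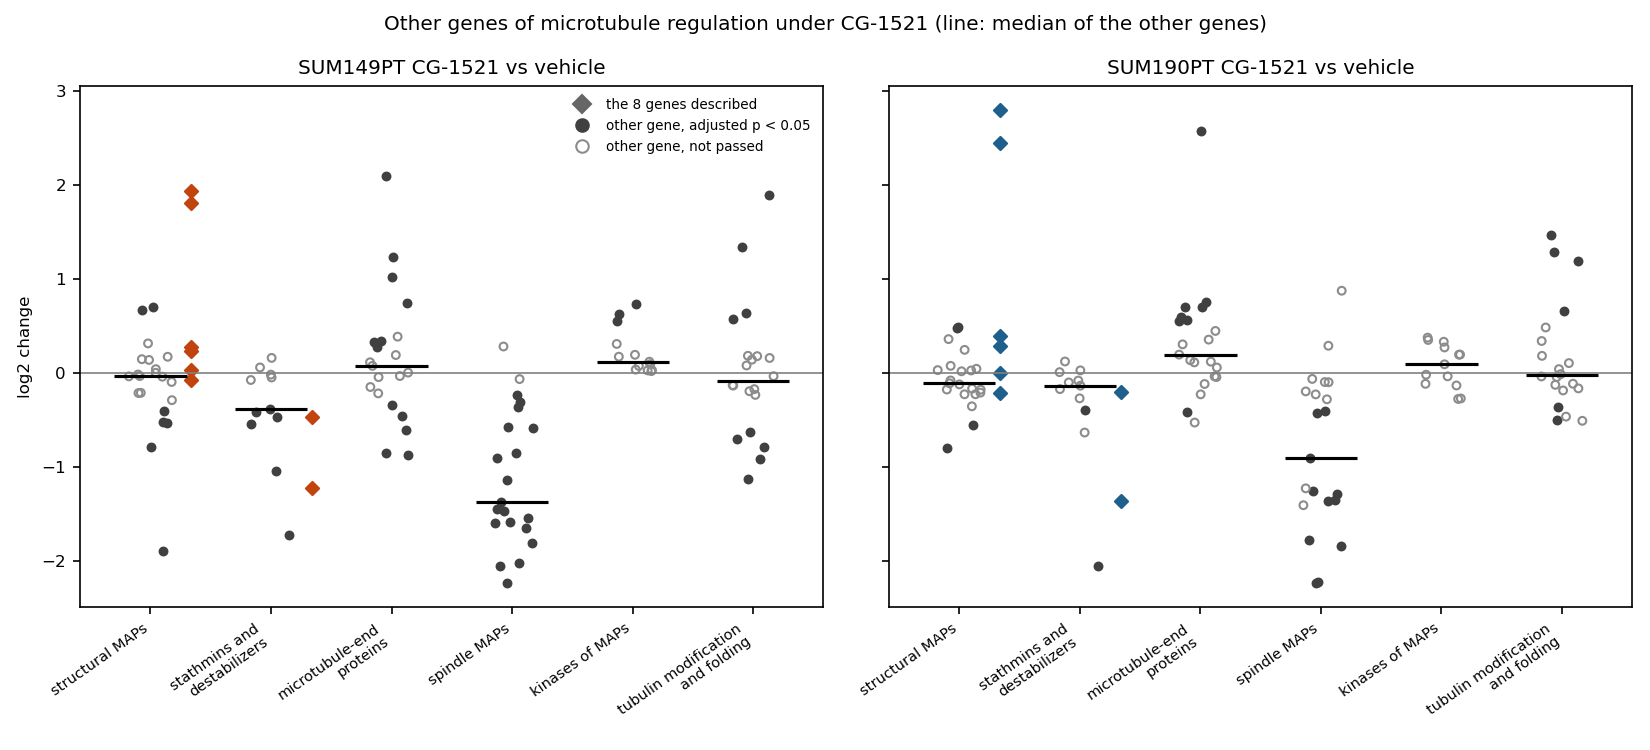
Log2 change with CG-1521 against vehicle (y axis) in SUM149PT (left) and SUM190PT (right) for the genes of 6 microtubule lists (x axis). Grey and black circles are the 107 other genes, black where the adjusted p was under 0.05, horizontal lines their medians, and diamonds the 8 genes described, with no test shown. The spindle MAPs have medians of -1.37 in SUM149PT and -0.90 in SUM190PT. MAP1B and MAP2 lie above every other structural MAP in both lines, which in SUM149PT the choice of the set favoured.

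Because MAP1B, MAP2, MAPT and STMN3 are best known from neurons, 12 neuronal markers were read beside them. With CG-1521 against vehicle, 1 rose and 1 fell in SUM149PT (median change 0.02), STX1A by 0.45 and NEFL by -1.35, and 1 rose and 0 fell in SUM190PT (median -0.05), STX1A by 1.13. With estradiol in both arms of SUM190PT, 4 of 12 rose and 0 fell (median 0.31, against 0.07 over all genes, of which 12.5% rose): STX1A by 1.18, NEFM by 0.46, SYN1 by 0.38 and SNAP25 by 0.36. MAP1B, MAP2 and STMN3 rose in the same comparison, and the part of these markers in that result was not tested. The reference was low there: the neuronal median change was -0.20 for estradiol against vehicle. For both agents against vehicle it was 0.08, with 2 of 12 higher and 0 lower. With estradiol against vehicle, fibroblast markers had a median of -0.20, endothelial -0.18, epithelial -0.02 and leukocyte markers 0.05 (all genes -0.04). The median level of the neuronal markers per array stayed within 5.06 to 5.17 with CG-1521 and 5.19 to 5.22 with vehicle in SUM149PT, and within 4.74 to 4.87 with CG-1521 and 4.75 to 4.84 with vehicle in SUM190PT. The defining neuronal genes RBFOX3 and SNAP25 averaged 5.56 ± 0.11 and 4.77 ± 0.05 in SUM149PT with CG-1521, against 5.54 ± 0.08 and 4.80 ± 0.18 with vehicle (log2, SD, n = 3). In SUM190PT RBFOX3 averaged 5.22 ± 0.03 with CG-1521 and 5.49 ± 0.29 with vehicle, and 5.51 ± 0.10 with both agents and 5.20 ± 0.20 with estradiol. SNAP25 there averaged 4.70 ± 0.10 with CG-1521 and 4.58 ± 0.16 with vehicle, and 4.71 ± 0.03 with both agents and 4.35 ± 0.14 with estradiol (SD, n = 3 each). The 3 other marker lists, of fibroblasts, leukocytes and endothelium, had at most 1 gene changed in each direction in either line with CG-1521 against vehicle. The largest rise was that of CD68, a lysosomal protein used as a macrophage marker, by 0.88 in SUM149PT and by 1.91 in SUM190PT (limma adjusted p = 2.24e-05). The fibroblast marker DCN fell by 0.96 in SUM149PT, from a mean of 4.12 with vehicle to 3.17 with CG-1521. Both DCN means lay below 4.615, the level under which the dimmest 25% of genes averaged. Of the 8 epithelial markers, CDH1 rose by 0.48 and KRT7 fell by 0.49 in SUM149PT, and KRT19 fell by 0.59 and KRT8 fell by 0.51 in SUM190PT.

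Genes most like MAP1B, MAP2 and STMN1 were found by the mean absolute difference of 6 log2 changes, those of the 3 treated groups of each line against the vehicle of that line. Nearest to MAP1B were the uridine phosphorylase UPP1 (0.218), the heme oxygenase HMOX1 (0.296) and SLFN5 (0.340). Nearest to MAP2 were SLFN5 (0.234), the interferon-induced IFI44 (0.241) and GULP1 (0.242), so that SLFN5 was near both. UPP1 had changes of 1.64 with CG-1521 in SUM149PT and 2.65 in SUM190PT. Nearest to STMN1, and closer than any of these, were the histone gene H3C8 (0.0688), the separase gene ESPL1 (0.0692) and EMP2 (0.0821), with changes of -1.42 (ESPL1) in SUM149PT and -1.35 in SUM190PT with CG-1521. These distances were computed over 6 changes that share the vehicle arrays of each line and describe likeness of pattern only.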

How the data were processed

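Total RNA was amplified and biotin labelled with the NuGEN pico protocol and hybridized to human gene arrays, per the labels' protocols. The authors deposited 1 table of log2 expression values made with RMA in Affymetrix Expression Console, per the submitters' processing notes; the versions are not given in the sources used here. The table held 33297 probe sets on 24 arrays with no missing values and array medians of 5.386 to 5.502. The number of arrays, 3 per group, limits the precision.

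Probe sets were named through the platform annotation: 19460 had 1 gene, 1754 several and 12083 none. The brightest probe set of each of 18417 genes was kept, and none was filtered on level. Fits used limma 3.58.1 in R 4.3.3 (lmFit, contrasts.fit, eBayes), on the 12 arrays of a line for 12 comparisons and on all 24 for 3 comparisons between lines, two-sided, with Benjamini-Hochberg adjustment over all genes and a threshold of 0.05. The fits were tested on simulated data. Tables and figures used Python 3.11.15 with pandas 2.3.3, numpy 2.4.6 and matplotlib 3.10.9. Promoter windows came from RefSeq (GRCh38.p14).

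The members and lists were chosen with earlier results of these data known. Beside the members, up to 3 risers and 3 fallers per list with separate groups were named, and 3 nearest genes for MAP1B, MAP2 and STMN1. Same-numbered experiments deviated together (every pair above 0.1) for SUM190PT estradiol and vehicle (correlation of deviations 0.229 to 0.729) and for SUM190PT with both agents and CG-1521 (0.434 to 0.518). No other pair of groups met that cutoff. In SUM149PT the correlations were 0.054 to 0.23 for estradiol and vehicle and 0.097 to 0.144 for both agents and CG-1521. Each other SUM149PT pair of groups included negative values. Whether weaker pairing was present there was not tested. Alternatives were the replicate block, other sample sets, quantile and median scaling, a dim-gene filter, mean of probe sets, limma-trend and leaving out arrays.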

Additional observations from a re-analysis of the deposited data

Results flagged for a closer look

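The response of MAP4 to CG-1521 differed between the lines by a test of the difference itself, as did that of 20.6% of all genes, so 1 call among 8 genes is not more than the background. The comparison contains the SUM149PT change by which the set was chosen. The change in SUM149PT minus that in SUM190PT was -0.47 (SE 0.14, limma adjusted p = 0.0199). MAP4 changed by -0.07 in SUM149PT and by 0.40 in SUM190PT. The difference ranged between -0.57 and -0.41 when single arrays were left out, and it no longer passed without replicate 2 of SUM149PT with CG-1521 (-0.43, adjusted p = 0.0541), without replicate 2 of SUM190PT with vehicle (-0.41, adjusted p = 0.0546) or after quantile normalization (-0.38, adjusted p = 0.073). Dose and medium differ with the line, and their part was not tested.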

How the results depend on the processing

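Over the 8 genes and all comparisons, 1755 of 1856 alternative values kept their side of the threshold, and those past it kept their direction. Another 36 passed where the reported value did not, 60 no longer passed and 5 reversed. A change of sign was counted as a reversal only if the reported or the alternative value passed. Uncounted ones occurred: STMN1 for estradiol against vehicle in SUM190PT ranged from -0.37 to 0.48 when single arrays were left out. Leaving aside CG-1521 against vehicle in SUM149PT, which led to the set, MAP1B and MAP2 passed in all 73 alternatives of the comparisons with CG-1521 within the lines (1.67 to 3.63 for MAP1B and 1.47 to 2.76 for MAP2), and STMN1 in 60 of 73 (-1.87 to -0.54, its brighter probe set or the mean of both); both agents against vehicle in SUM149PT, included here, shares its vehicle arrays with the comparison left aside. The 5 reversals were all from the dimmer STMN1 probe set, chosen after seeing the data: 0.25 for CG-1521 against vehicle, 0.0574 with estradiol in both arms and 0.18 for both agents against vehicle in SUM149PT, and 0.31 with estradiol in both arms and 0.10 for both agents against vehicle in SUM190PT; the cause was not tested. In a single fit over all 24 arrays, estradiol against vehicle in SUM190PT gave 1 called member instead of 0, as did the interaction there. The difference in response between the lines gave 2 members with the replicate block, 0 after quantile normalization and 2 without replicate 3 of SUM190PT vehicle and estradiol, instead of 1. Over all genes 3801 passed in the reported fit of that difference, and 3029 to 4713 when single arrays were left out. The counts over all genes in the other fits of it are not given here, so no excess is read from these member counts. Leaving out single arrays gave 2 to 5 members for CG-1521 against vehicle in SUM190PT, 3 to 5 with estradiol in both arms, 2 to 4 for both agents against vehicle, 0 to 1 for estradiol against vehicle, 0 to 1 for the interaction and 0 to 2 for the difference in response. Over all genes, the SUM190PT counts moved with the fit and with single arrays: 3053 for CG-1521 against vehicle became 5070 in the single fit, 2466 for both agents against vehicle became 4242, and 0 for both agents against CG-1521 became 7. Estradiol against vehicle in SUM190PT gave 1 gene, against 519 with the replicate block, 2990 in the single fit, 4 after quantile normalization and 0 with only the groups compared or without those 2 arrays; the interaction gave 95, against 0 with the replicate block, 2540 in the single fit, 5 after quantile normalization, 10 with centred arrays, 5 with limma-trend and 1 without those 2 arrays. The replicate block changed no call of a member within SUM190PT. The block fits the same replicate effects to all groups of a line, although the correlations of deviations were all above 0.1 only within certain pairs of SUM190PT groups. That result therefore does not settle what a matching pairing would give. Elsewhere the block changed MAP7 for both agents against vehicle in SUM149PT (limma adjusted p = 0.0541), and MAP1B between the lines with CG-1521 (0.0125). The second member under the block in the difference in response is MAP1B too, whose SUM149PT change led to the set. Leaving out single SUM190PT arrays gave 1567 to 3082 genes for CG-1521 against vehicle, 2605 to 4513 with estradiol in both arms, 1252 to 2248 for both agents against vehicle, 0 to 2261 for estradiol against vehicle and 0 to 1655 for the interaction. Signal over background was not used here, so how far dim probe sets such as MAP1A compress a change was not tested.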

Other observations

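With estradiol in both arms, arrays that do not enter CG-1521 against vehicle, the other microtubule regulators gave the counts below, where 16.5% of all genes rose and 20.4% fell in SUM149PT and 12.5% rose and 13.2% fell in SUM190PT. Of 21 spindle MAPs, 19 fell in SUM149PT (median -1.47, against 0.03 over all genes) and 13 fell in SUM190PT (-1.02, against 0.07), or 16 without replicate 3 of vehicle and estradiol. The spindle MAPs were low on those arrays, so leaving the arrays out enlarges the fall. Of 11 further genes listed with the stathmins and destabilizers, 1 rose and 6 fell in SUM149PT, and 0 rose and 4 fell in SUM190PT. Of 13 kinases that phosphorylate MAPs, 7 rose and 0 fell in SUM149PT (median 0.23), against 3 that rose with CG-1521 against vehicle, and 0 rose and 1 fell in SUM190PT. Of 21 other structural MAPs, 3 rose and 4 fell in SUM149PT, and 3 rose and 2 fell in SUM190PT.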
